A study of Mus musculus with 46 samples.

Results

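Chemokines and their receptors are described here in 4 sorted cell populations of the mouse kidney during obstruction and after its relief. The members are the rows of the expression table whose name is that of a CC, CXC, CX3C or XC chemokine ligand or of a conventional receptor for one, so membership rested on the gene name and not on any measured value. The rule took 53 of 53465 rows, of which 35 were ligand rows and 18 receptor rows. Ccl19 has 2 rows, one of them on an unplaced scaffold, and the text refers to the other one unless it says scaffold. Pf4, Ppbp, the Ccl21 and Ccl27 genes, the atypical receptors and chemerin with its receptor bear other names and are counted separately.

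Wild-type male adult C57BL/6 mice underwent sham surgery, unilateral ureteric obstruction (UUO) or UUO followed by reimplantation of the ureter, which reverses the obstruction (rUUO). The labels used here give neither the days of obstruction nor the days of recovery. Each kidney was sorted by flow cytometry into proximal tubular (PT) cells by binding of the lectin LTL, macrophages by F4/80, endothelial cells by CD31 and stromal cells by PDGFRB, and the RNA of each sort was amplified and sequenced. The values used here came from 3 sham, 4 UUO and 3 rUUO samples of PT cells, 4, 4 and 3 of macrophages, 4, 3 and 4 of endothelial cells, and 4, 4 and 4 of stromal cells.

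Chemokines are small secreted proteins that guide leukocytes along concentration gradients. Each acts through receptors of the G protein-coupled class on the responding cell, and most leukocyte subsets are known by the receptors they carry. In the obstructed kidney, injured epithelium, stroma and resident macrophages are all known sources of ligands, while receptors such as Ccr2 mark the incoming monocyte and macrophage.

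Levels are in FPKM, sequenced fragments scaled to the length of the transcript and to the total of the sample, so levels of different genes may be set side by side. Changes are differences of log2(FPKM + 1), a scale that understates the change of low genes. A gene was tested in a population when its mean over that population's samples reached 1 FPKM, and it was called when limma's moderated test gave a Benjamini-Hochberg adjusted p under 0.05 over the genes tested there. The files hold no read counts, so depth is unknown and a value of 0 says only that the gene is listed at 0. Nothing in the labels says that the samples of a group were separate animals, so p-values measure the spread between these samples, which may be technical. In sorted bulk RNA, fewer cells of a type and less RNA per cell cannot be told apart.

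Each sort carried the markers of its label, and each also carried thick limb and collecting duct markers. The summed PT marker list ranged over 1824 to 2457 FPKM after sham surgery, 484 to 672 after UUO and 1125 to 1381 after rUUO, while 6 markers of the thick ascending limb and collecting duct summed to 29.7 to 30.5, 411 to 514 and 152 to 225 FPKM. In sham samples the latter list summed to 342 to 427 FPKM in stromal and 168 to 809 in endothelial cells. Umod, a thick limb protein, averaged 17.4, 147 and 72.9 FPKM in the 3 groups of the PT sort. Mitochondrial genes held 58.7 to 75.6% of the FPKM of PT samples. In sham samples they held 68.9 to 75.6% in PT cells and 24.6 to 28% in macrophages. The sham shares were 32.5 to 43.5% in endothelial and 34 to 45.8% in stromal cells. FPKM is scaled to the total of a sample, so these shares bear on levels compared between sorts. The macrophage marker list stayed between 17.2 and 46.7 FPKM in every PT sample, against 5012 to 10025 in macrophages.

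Macrophages had the highest sham mean for more chemokines and receptors than any other sort. Of the 35 ligand rows, 15 had their highest sham mean in macrophages, 7 in stromal cells and 1 in endothelial cells, and 12 reached 1 FPKM in no population. Of the 18 receptors, 8 were highest in macrophages and 10 reached 1 FPKM nowhere. The summed ligand level was 996 ± 161 FPKM (SD, n = 4) in sham macrophages, 228 ± 23.4 (n = 4) in stromal cells, 112 ± 27.7 (n = 4) in endothelial cells and 34.3 ± 8.47 (n = 3) in PT cells. Over all groups, 40 of the 53 rows reached a group mean of 1 FPKM, 28 reached 10 and 13 reached 100. Ccl1 and Ccl26 were listed at 0 in every sample.

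**Figure D1:**
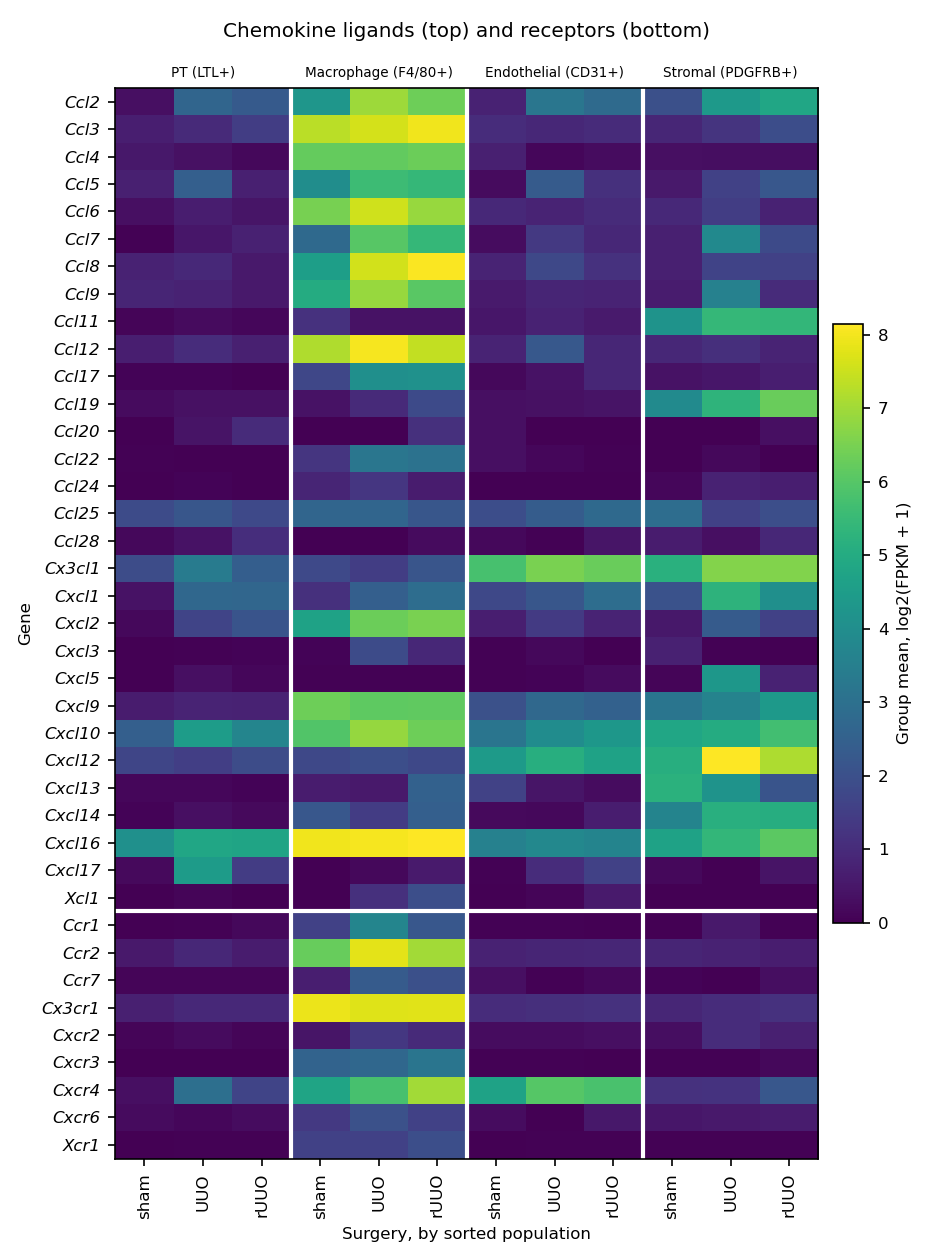
Group means of 39 chemokine ligands and receptors with a mean of at least 1 FPKM in some group, on the log2(FPKM + 1) scale, for 4 sorted populations by 3 surgeries. Ligands are above the white line and receptors below it. Most rows are brightest in the macrophage columns, Ccl11, Ccl19, Cxcl12 and Cxcl14 are brightest in stromal cells, and Cxcl17 is brightest in UUO PT cells.

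Each sham population was also tested against the mean of the others, and the order was the same. This test used the same sham samples and is not separate support. A gene was tested when its mean over all sham samples reached 1 FPKM. Members high in macrophages alone, such as Ccr2, thus passed through that sort. The counts and medians below describe the members that passed and support nothing further. Of 26 members tested, 19 were higher in macrophages, where 33.9% of 14204 genes were called higher, 9 in stromal cells (35.3% of genes), 4 in endothelial cells (29.2%) and 0 in PT cells (9.34%). For PT cells the count was also 0 at an unadjusted p under 0.05, and 25 of the 26 were called lower, against 67.4% of genes. The median difference over the 26 members was 3.28 log2 units in macrophages, against 0.169 over all genes tested. In stromal cells the share of members called higher, 34.6%, was near the background.

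Among the members highest in sham macrophages were the receptor Cx3cr1 and the ligands Cxcl16, Ccl3 and Ccl12. Cx3cr1, the fractalkine receptor that marks resident kidney macrophages, was at 207, 216, 275 and 270.4 FPKM in the 4 sham samples. Cxcl16, a membrane-bound ligand of Cxcr6, was at 239, 239, 214 and 301 FPKM. Every macrophage sample lay far above the other populations for both genes, with 25.1 FPKM of Cxcl16 as the highest sham mean elsewhere. Macrophages made up 99% of the summed population means of Cx3cr1. The ligands Ccl3 and Ccl12, an inflammatory CC chemokine and a mouse relative of Ccl2, were at 93.4 to 224 and 122 to 159 FPKM in sham macrophages. Their differences from the other populations were 6.45 and 6.44 log2 units, against 7.05 for Cx3cr1.

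Stromal cells were called higher for 9 members, among them several ligands. Cxcl13, which attracts B cells through Cxcr5, was 4.44 log2 units above the other populations, Ccl11 (eotaxin, a ligand of Ccr3) 3.60, Ccl19 (a ligand of Ccr7) 3.45, Cxcl14 2.80 and Cxcl12 (the ligand of Cxcr4) 2.43. Cxcl12 ranged from 18.1 to 49.0 FPKM in stromal and from 12.1 to 27.4 in endothelial sham samples, which overlapped. Endothelial cells were called higher for Cx3cl1, or fractalkine, by 2.83 log2 units, for the receptor Cxcr4 by 2.60, for Cxcl12 by 1.55 and for Cxcl1 by 0.60. For Cxcr4, macrophages were called higher as well, by 2.65, and the samples of both sorts overlapped at means of 25.9 FPKM in macrophages and 25.1 in endothelial cells. Cx3cl1 was thus called higher in both endothelial and stromal cells, at 53.3, 54.6, 78.1 and 31.2 FPKM in endothelial and 26.6, 30.4, 57.7 and 25.8 FPKM in stromal sham samples. These ranges overlapped, and the order of both populations was not set. PT cells held Cxcl16 at 16.8, 17.4 and 13.7 FPKM in sham, 46.6% of their summed ligand level, and no other member there reached 10 FPKM as a sham mean.

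Each member in PT, endothelial or stromal cells was set against 7 summed macrophage markers in the same sort, both as a share of their level in macrophages. In UUO these markers stood at 0.409% of their macrophage level in PT cells, 0.546% in endothelial cells and 0.453% in stromal cells. Of the 19 members at 10 FPKM or more in UUO macrophages, 6, 6 and 3 were at or below that share in the 3 populations. In PT cells, Ccr2 was at 0.384% of its macrophage level, Cx3cr1 at 0.431% and Ccl3 at 0.488%, all close to the marker share. Other members stood well above it, with Ccl2 at 4.29%, Ccl5 at 9.74%, Cxcl16 at 10.6%, Cxcr4 at 12.8% and Cxcl10 at 18.9% in PT cells. More than 10 times the marker share was reached by 5 members in PT cells, 5 in endothelial cells and 7 in stromal cells, and Ccl2 and Cxcl10 were among them in each.

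**Figure D2:**
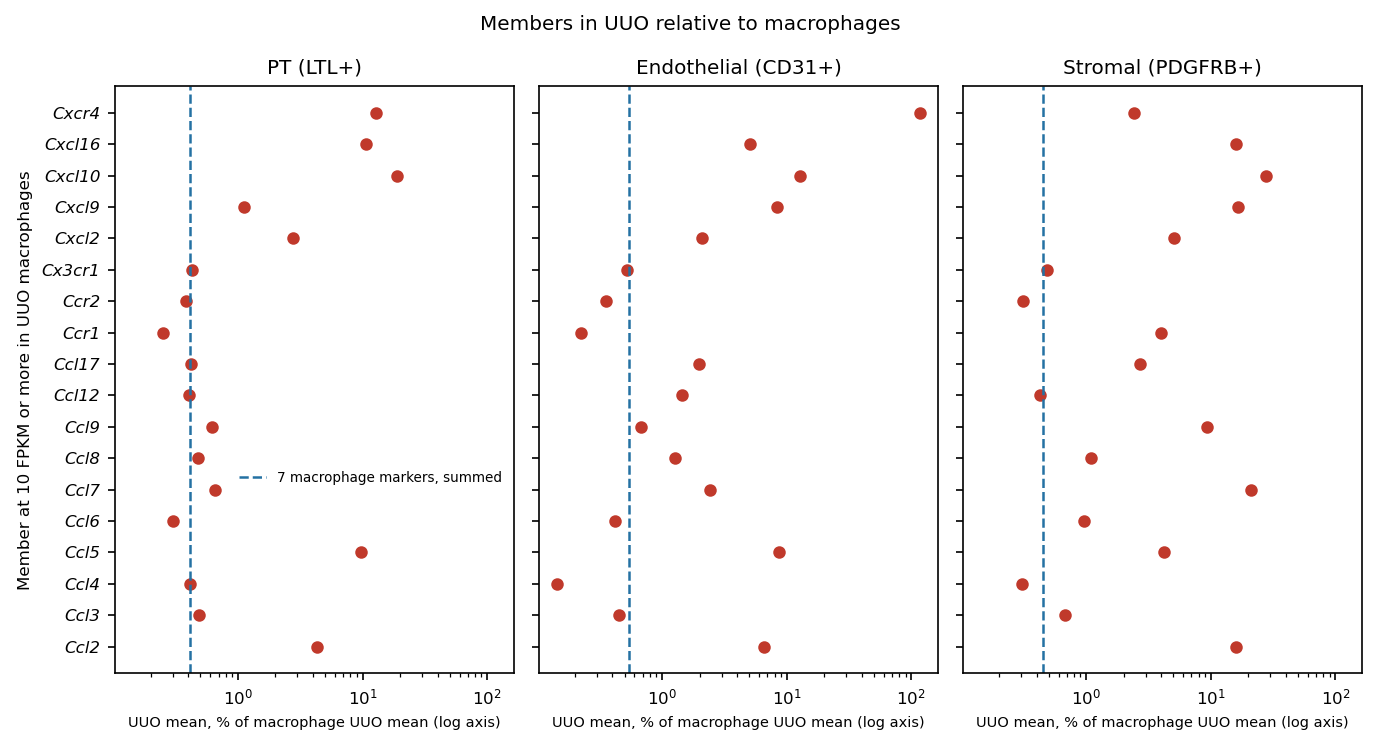
Mean level in UUO of 18 members at 10 FPKM or more in UUO macrophages, as a percentage of the macrophage mean (log axis), in PT, endothelial and stromal cells. The dashed line is the same percentage for 7 summed macrophage markers, 0.409, 0.546 and 0.453%. The receptors Ccr2 and Cx3cr1 lie near the line in PT cells, whereas Ccl2, Ccl5, Cxcl10, Cxcl16 and Cxcr4 lie to its right.

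UUO against sham asked which cells raise ligands or receptors under obstruction. Of the 36 members tested in at least 1 population, 23 were called in at least 1. The share of all genes called in at least 1 population was not counted, so this count is not read further. In PT cells 8 of the 12 members tested rose and 0 fell, against 27.9 and 4.91% of 11416 genes. In macrophages 11 of 33 rose and 0 fell, against 2.86 and 2.13% of 13332 genes, in endothelial cells 2 of 15 rose and 0 fell, against 1.28 and 0.702% of 13393, and in stromal cells 10 of 23 rose and 2 fell, against 13.4 and 13% of 14033. The median change of the members tested was 1.59, 0.84, 0.80 and 0.92 log2 units in PT, macrophage, endothelial and stromal sorts, against 0.51, -0.03, 0.03 and -0.07 over all genes tested. These counts and medians describe the members that passed the filter on low values and support nothing further, since members under 1 FPKM in sham passed only through the groups where they were higher. Of the members tested, 7 in PT cells, 5 in macrophages, 5 in endothelial cells and 9 in stromal cells had a sham mean under 1 FPKM, among them Cxcl17, Ccl2, Cxcr4, Cxcl1 and Ccl5 in PT cells. UUO samples lay wholly above sham samples for 9, 14, 6 and 5 of the members tested in these sorts, against 34.5, 6.04, 6.17 and 13.2% of genes. The receptors called were Cxcr4 in PT cells, Ccr1, Ccr2 and Cxcr4 in macrophages, Cxcr4 in endothelial cells and 0 of 3 tested in stromal cells.

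**Figure D3:**
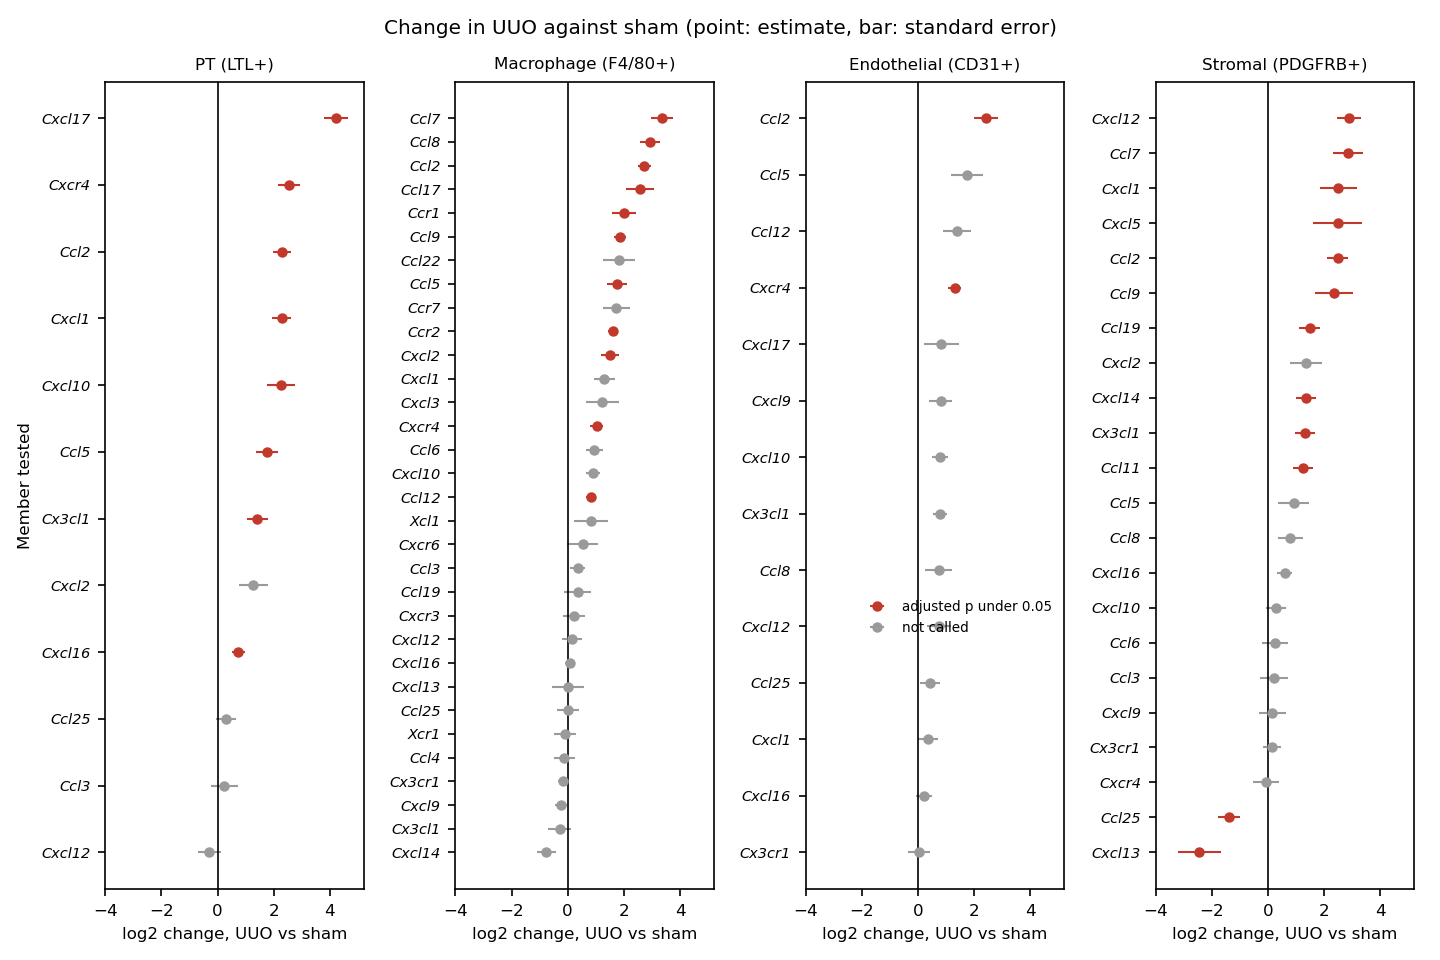
Change in UUO against sham for the members tested, in log2(FPKM + 1), by population, where a point is the estimate, the bar its standard error and red an adjusted p under 0.05 in limma. Red points lie right of 0 except Ccl25 and Cxcl13 in stromal cells, and Ccl2 is red in all 4 panels.

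Ccl2 (MCP-1), the main ligand of the monocyte receptor Ccr2, rose in every population. In PT cells it was at 0.21, 0.30 and 0.23 FPKM in sham and 3.37, 3.73, 6.80 and 7.37 in UUO, a change of 2.28 ± 0.32 log2 units (SE, adjusted p = 0.000106). In macrophages it was at 19.0, 12.7, 29.5 and 13.2 FPKM in sham and 151, 105, 117 and 121 in UUO (2.73 ± 0.24, adjusted p = 3.87e-05). The UUO samples lay above every sham sample in both. In endothelial cells the sham values were 0.73, 0.66, 0.19 and 1.23 FPKM and the UUO values 7.38, 5.77 and 11.4 (2.42 ± 0.43, adjusted p = 0.00687). Stromal cells held 0.75, 3.03, 3.85 and 4.41 FPKM in sham and 16.6, 16.7, 21.0 and 25.1 in UUO (2.48 ± 0.36, adjusted p = 0.000107). Groups did not overlap in any of the 4 populations, and an F test of the population by surgery interaction did not show that the change differed between them (adjusted p = 0.866). By level, macrophages stayed highest, with a UUO mean of 124 FPKM against 19.8 in stromal, 8.19 in endothelial and 5.32 in PT cells.

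**Figure D4:**
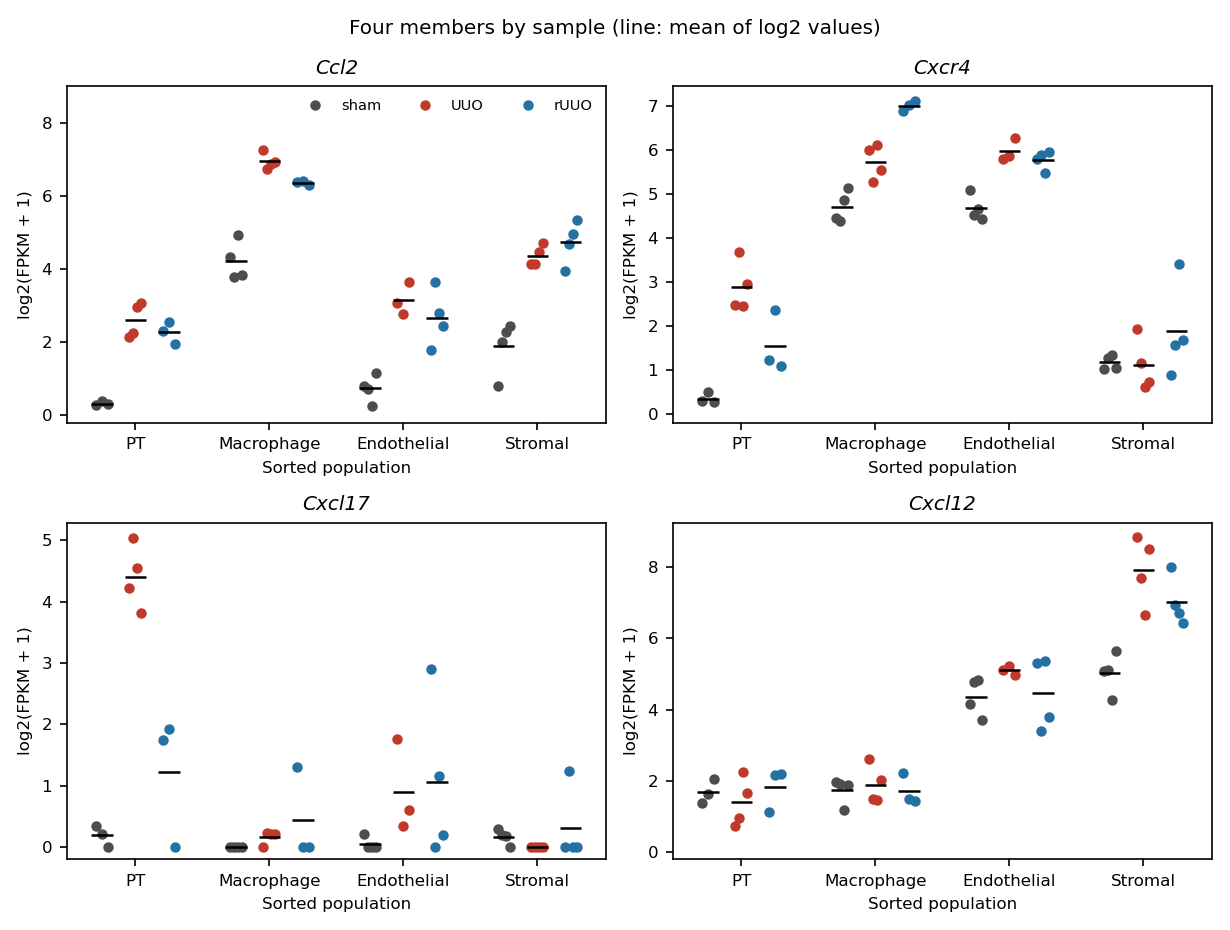
Ccl2, Cxcr4, Cxcl17 and Cxcl12 in every sample, as log2(FPKM + 1), by sorted population and surgery, where a point is a sample and the line the mean of the log2 values. Ccl2 is higher in UUO than in sham in each population, Cxcl17 is high in the 4 UUO PT samples and Cxcl12 in the 4 UUO stromal samples, and Cxcr4 in macrophages is highest in rUUO.

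Cxcl17, a mucosal CXC-family protein, rose in PT cells. It was at 0.27, 0.16 and 0 FPKM in sham and 17.8, 31.9, 22.6 and 13 in UUO, a change of 4.22 ± 0.43 log2 units (adjusted p = 6.08e-06). PT cells held 94.8% of the summed UUO population means of this gene. Cxcl1, a neutrophil attractant acting through Cxcr2, went from 0.46, 0.36 and 0.12 FPKM to 5.73, 2.98, 6.87 and 6.56 (2.28 ± 0.33, adjusted p = 0.000149). Groups did not overlap for either gene. Cxcl10, an interferon-induced ligand of Cxcr3, was at 1.36, 9.6 and 2.66 FPKM in sham and 12.6, 25.6, 26.1 and 21.6 in UUO (2.27 ± 0.50, adjusted p = 0.00373). Ccl5 (RANTES), which attracts T cells and monocytes, rose from 1.38, 0.28 and 0.29 to 3.17, 3.50, 7.69 and 3.83 FPKM (1.75 ± 0.39, adjusted p = 0.00374). Cx3cl1 rose by 1.42 ± 0.38 log2 units (adjusted p = 0.012), from 1.96, 3.97 and 2.17 FPKM to 5.56, 12.8, 13.7 and 5.55. Cxcl16 rose from 16.8, 17.4 and 13.7 FPKM to 24.5, 25.2, 36.0 and 25.0 (0.74 ± 0.24, adjusted p = 0.0297).

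Cxcr4 was the only receptor above the level for testing in PT cells. It was at 0.22, 0.40 and 0.20 FPKM in sham and 4.57, 11.8, 4.50 and 6.79 in UUO, a change of 2.55 ± 0.38 log2 units (adjusted p = 0.000212), and made up 68.7% of the receptor sum of UUO PT cells. Its ligand Cxcl12 averaged 2.28 FPKM in sham and 1.88 in UUO PT cells and was not called. The 6 thick limb and collecting duct markers and the monocyte markers were higher in the same UUO samples, at the summed levels given above. The part of either list in these changes was not tested. Of the PT genes called, 85% were higher in UUO, or 68.9% without mitochondrial genes and 51.8% after quantile normalization, with 7 and 6 members called higher. Cxcl16 was not called under either scaling nor without PT sham replicate 1, PT sham replicate 4 or PT UUO replicate 3, and Cx3cl1 was not called after quantile normalization.

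In macrophages, several CC ligands rose. Ccl7 (MCP-3), which acts through Ccr2, was at 6.61, 1.44, 7.45 and 8.34 FPKM in sham and 79.1, 40.2, 69.9 and 66.4 in UUO, a change of 3.35 ± 0.39 log2 units (adjusted p = 0.000199). Ccl8 (MCP-2) went from 15.8, 19.1, 35.8 and 19.7 to 243, 93.7, 115 and 322 FPKM (2.93 ± 0.35, adjusted p = 0.000241). Each UUO sample exceeded every sham sample, by a wide margin for both genes. Ccl12 rose by less, from 122, 153, 144 and 159 to 287, 224, 212 and 321 FPKM (0.84 ± 0.17, adjusted p = 0.0132), but from a level already high. Ccl9, a ligand of Ccr1, rose from 23.1, 36.6, 37.8 and 28.3 to 144, 81.7, 112 and 137 FPKM (1.87 ± 0.22, adjusted p = 0.000202). The summed level of all ligands in macrophages was 996 ± 161 FPKM in sham and 1829 ± 332 in UUO (SD, n = 4 each).

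The receptors Ccr2, Ccr1 and Cxcr4 rose in the same sort. Ccr2, which brings monocytes out of the marrow toward Ccl2 and Ccl7, was at 50.3, 81.4, 87.7 and 79.3 FPKM in sham and 224, 241, 241 and 199 in UUO, a change of 1.61 ± 0.18 log2 units (adjusted p = 0.000164). Ccr1 went from 1.29, 2.91, 0.96 and 2.73 to 19.8, 3.87, 13.8 and 10.5 FPKM (2.01 ± 0.43, adjusted p = 0.0179), and Cxcr4 from 21.0, 19.97, 28.1 and 34.4 to 63.3, 37.9, 68.6 and 46.1 (1.03 ± 0.23, adjusted p = 0.0198). None of the 3 overlapped between groups. Cx3cr1, at 178, 253, 253 and 180.0 FPKM in UUO, overlapped its sham values and was not called. Summed monocyte markers in this sort were 6.04 to 7.01 FPKM in sham and 15.4 to 40.3 in UUO, and their part in the result was not tested.

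A further group of macrophage ligands attracts lymphocytes or neutrophils. Ccl17, a ligand of Ccr4 that marks dendritic cells and alternatively activated macrophages, was at 0.33, 5.03, 0.31 and 3.55 FPKM in sham and 9.39, 15.8, 26.4 and 11.1 in UUO (2.56 ± 0.50, adjusted p = 0.0101). Ccl5 rose by 1.76 ± 0.37 log2 units (adjusted p = 0.0158), from 12.2, 8.89, 7.60 and 30.8 to 33.0, 46.2, 63.3 and 44.3 FPKM. Cxcl2, a neutrophil attractant, rose from 19.5, 34.3, 23.5 and 22.7 to 117.9, 35.9, 95.5 and 64.5 FPKM (1.51 ± 0.31, adjusted p = 0.0147). UUO replicate 2 was close to the highest sham sample for Cxcl2, but no group overlapped. Ccl22, which shares Ccr4 with Ccl17, had a change of 1.84 ± 0.57 (adjusted p = 0.0843) and Cxcl10 of 0.89 ± 0.25 (adjusted p = 0.0538), both short of a call. Cxcl9, Ccl3, Ccl4 and Cxcl16 were between 47.9 and 294 FPKM in UUO except Ccl4 in replicate 2 (30.5 FPKM), and none of them was called.

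In the macrophage sort, T cell and natural killer cell markers were higher in UUO, while B cell and neutrophil markers overlapped between sham and UUO. B cell markers summed to 42.5 to 57.8 FPKM in sham and 28.6 to 97.2 in UUO. Dendritic cell markers were lower, at 30.9 to 40.6 FPKM in sham and 11.5 to 26.9 in UUO. Summed T cell markers were 0.69 to 1.64 FPKM in sham and 4.51 to 53.9 in UUO, and natural killer cell markers were listed at 0 in sham and summed to 0.53 to 13.4 in UUO. Neutrophil markers summed to 26.0 to 78.7 FPKM in sham and 49.9 to 233 in UUO, although Ly6g, the defining marker, averaged 0 and 0.145 FPKM. Xcl1, a product of T and natural killer cells, was listed at 0 in every sham sample and at 0, 0, 3.65 and 1.10 FPKM in UUO. The part of these cells in the rise of Ccl5 and Cxcl2 was not tested. Without macrophage sham replicate 1 the number of members called fell from 11 to 7, with Ccl12, Ccr1, Cxcl2 and Cxcr4 no longer past the threshold. Ccl5 was lost without sham replicate 2, Ccr1 also without sham replicate 3 or UUO replicate 1, and Cxcr4 also without sham replicate 2 or UUO replicates 1 or 3.

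Cxcl12 rose in stromal cells. This ligand of Cxcr4 was at 32.9, 33.8, 18.1 and 49.0 FPKM in sham and 459.7, 206, 100.1 and 367 in UUO, a change of 2.90 ± 0.43 log2 units (adjusted p = 0.000135). The UUO samples stood clear of the sham samples, and stromal cells held 88.1% of the summed UUO population means. Ccl7 rose from 0.21, 1.67, 0.47 and 0.22 to 12.7, 9.95, 2.53 and 28.7 FPKM (2.85 ± 0.54, adjusted p = 0.00107), and Ccl11 from 15.5, 23.9, 10.5 and 19.7 to 40.6, 51.7, 27.1 and 49.1 (1.24 ± 0.35, adjusted p = 0.0141). Cxcl5, a neutrophil attractant, was under 0.15 FPKM in sham and at 69.3, 3.88, 0.19 and 2.26 in UUO (2.49 ± 0.87, adjusted p = 0.0453). This value rested on UUO replicate 1 for its size, and the call was lost without any 1 of the 4 sham samples, among others.

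In the other stromal ligands that rose, the groups overlapped. Cxcl1 was at 3.60, 2.74, 3.27 and 2.84 FPKM in sham and 41.5, 16.6, 3.49 and 87.4 in UUO (2.51 ± 0.66, adjusted p = 0.0106). Ccl9 was at 0.40 to 0.81 FPKM in sham and at 19.1, 6.67, 0.23 and 18.5 in UUO (2.35 ± 0.67, adjusted p = 0.0168), and was lost without UUO replicate 1 or 4. UUO replicate 3 lay in the sham range for Cxcl1 and below it for Ccl9, and the other UUO samples lay above it for both. Cx3cl1 rose by 1.32 ± 0.36 log2 units (adjusted p = 0.0121), from 25.8 to 57.7 FPKM in sham to 41.0, 76.9, 192 and 83.3 in UUO. Ccl19 rose by 1.48 ± 0.38 (adjusted p = 0.00851), with UUO replicate 1, at 21.6 FPKM, below sham replicate 2, at 22.8. Cxcl14 rose by 1.36 ± 0.36 (adjusted p = 0.0114), with UUO replicate 4, at 13.9 FPKM, inside the sham range of 8.02 to 15.4. The higher calls came from ligands alone, and the summed ligand level of stromal cells went from 228 ± 23.4 to 715 ± 151 FPKM (SD, n = 4 each).

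Cxcl13 and Ccl25 fell in UUO stromal cells. Cxcl13 was at 37.4, 39.6, 31.7 and 33.7 FPKM in sham and 0.58, 6.06, 2.01 and 59.7 in UUO, a change of -2.44 ± 0.77 log2 units (adjusted p = 0.0282). UUO replicate 4 exceeded all sham samples while the other 3 UUO samples were far below them, and leaving out any of sham replicates 1, 2 or 4 or UUO replicates 1, 2 or 3 ended the call. Ccl25, a ligand of Ccr9 known from thymus and gut, went from 4.28, 10.4, 4.03 and 7.27 to 3.93, 1.41, 0.53 and 1.92 FPKM (-1.39 ± 0.40, adjusted p = 0.0182). Its groups did not overlap, although the highest UUO and the lowest sham sample were 3.93 and 4.03 FPKM, and the call was lost without sham replicate 2 or 4 or UUO replicate 3. The stromal marker list itself summed to 870 to 2238 FPKM in sham and 6003 to 10038 in UUO, and neutrophil markers to 0.14 to 0.93 and 8.37 to 63.9 FPKM. Monocyte markers summed to 5.18 to 18.6 and 74.2 to 138 FPKM, and thick limb and collecting duct markers to 342 to 427 and 31.0 to 59.2. Only 1 of the 4 monocyte markers averaged 1 FPKM or more in either of these stromal groups, and 1 was listed at 0 in each. T cell markers in this sort were 0.11 to 1.93 and 8.33 to 29.6 FPKM, with Cd3d listed at 0 in UUO. The part of any of these in the stromal results was not tested.

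In endothelial cells, Cxcr4 was the other gene called beside Ccl2. It was at 33.1, 22.0, 24.5 and 20.7 FPKM in sham and 55.2, 57.7 and 76.8 in UUO, a change of 1.31 ± 0.22 log2 units (adjusted p = 0.00465), with no overlap. Cxcr4 made up 86.5% of the endothelial receptor sum in sham and 93.8% in UUO, and its UUO mean was 117% of that of macrophages. Cx3cl1 was at 86.1, 96.7 and 90.4 FPKM in UUO, above all 4 sham values, and Cxcl12 at 33.6, 36.5 and 30.5, but neither was called. Lymphatic endothelial markers in this sort summed to 44.3 to 64.6 FPKM in sham and 75.5 to 94.9 in UUO. Podocyte markers summed to 24.4 to 41.8 and 3.92 to 9.67 FPKM, and thick limb and collecting duct markers to 168 to 809 and 70.1 to 229. The endothelial marker list overlapped, at 2936 to 3502 and 2488 to 3468 FPKM. The part of these lists in the endothelial changes was not tested.

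The change in UUO against sham differed between populations for 17 of the 31 members tested in all 4 populations together, against 33.5% of 14332 genes, by an F test of the interaction in limma. Cxcl17 differed at an adjusted p of 1.14e-06, with a change called in PT cells. Within populations it was tested in PT and endothelial cells alone. Ccr2 differed at 3.07e-05 and was called in macrophages, the only sort where it reached the level for testing. A gene near 0 in a sort can change little there on this scale, so the F test also reflects where a gene is expressed. Cxcl12 differed at 0.000374, having changed by 2.90 log2 units in stromal cells and been called in no other. For Cxcr4 (adjusted p = 0.000948) the changes were 2.55, 1.03, 1.31 and -0.07 log2 units in PT cells, macrophages, endothelial and stromal cells, and the stromal value, which is not a call, took the other sign after quantile normalization. Ccl8, Ccl7, Ccl17 and Ccr1 also differed, at adjusted p of 0.00122, 0.0014, 0.000477 and 0.000564. Ccl17 and Ccr1 likewise reached the level for testing in macrophages alone. For Ccl2, Ccl5 and Cx3cr1 the test did not pass (adjusted p = 0.866, 0.651 and 0.649), which does not show equal changes.

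Promoters of the members were read for 2 sequence motifs that bear on inflammatory induction, the NF-κB motif and the interferon regulatory factor (IRF) motif, GAAA followed by any 2 bases and GAAA, on both strands within the 250 bases before the transcription start. RefSeq promoters of the GRCm38.p6 assembly were at hand for 37 of the 52 member symbols. The NF-κB motif was in 10 of the 37 (27%), against 7.25% of 32851 promoters, and the IRF motif in 3 of 37 (8.11%), against 2.98%. Of the 23 members called in UUO against sham, 16 had a promoter, 5 of which held the NF-κB motif (Ccl9, Ccr1, Cxcl1, Cxcl10 and Cxcl2) and 3 the IRF motif (Ccl19, Cxcl10 and Cxcl14). Of the 13 tested and not called, 10 had a promoter, 1 with the NF-κB motif (Cxcl3) and 0 with the IRF motif. The other bearers of the NF-κB motif, Ccl1, Ccl20, Ccr3 and Ccr6, were under the level for testing in every population. The motif was thus also present in members too low to test, and a link between motif and change was not tested. The stretches around the matches are shown for the NF-κB-bearing genes that were tested. Among them, the CXC neighbours Cxcl1, Cxcl2 and Cxcl3 share the same run of letters, and Cxcl10 holds both motifs. Capitals mark motif matches, and each line runs 5′ to 3′ along the strand of the gene.
Cxcl1, chr5:90891164-90891194, plus strand: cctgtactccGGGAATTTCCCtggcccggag
Cxcl2, chr5:90903792-90903822, plus strand: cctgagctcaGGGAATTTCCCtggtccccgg
Cxcl3, chr5:90786018-90786048, plus strand: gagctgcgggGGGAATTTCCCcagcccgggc
Cxcl10, chr5:92348973-92349112, minus strand: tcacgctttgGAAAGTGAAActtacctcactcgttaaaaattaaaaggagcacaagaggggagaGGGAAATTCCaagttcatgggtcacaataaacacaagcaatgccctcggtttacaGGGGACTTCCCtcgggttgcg
Ccl9, chr11:83578652-83578681, minus strand: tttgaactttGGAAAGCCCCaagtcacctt
Ccr1, chr9:123968747-123968776, minus strand: ctttagaaggGGGAGGCTCCtcactgacca

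The 11 capitals of Cxcl1, Cxcl2 and Cxcl3 are overlapping matches on both strands and start at -71, -97 and -73 from the transcription start. In Cxcl10 the first capitals are the IRF motif at -213, and the others are NF-κB matches at -159 and -104. The capitals are the same in Cxcl1, Cxcl2 and Cxcl3. In UUO against sham, limma called Cxcl1 in PT and stromal cells and Cxcl2 in macrophages. Short of a call were Cxcl1 in macrophages (1.31 log2 units, adjusted p = 0.0561) and endothelial cells (0.36, adjusted p = 0.742). Cxcl2 in PT cells (1.28, adjusted p = 0.0695) and stromal cells (1.36, adjusted p = 0.0898) was not called either. Cxcl3 reached 1 FPKM as a group mean only in UUO macrophages, at 8.11, 2.31, 0 and 0.23 FPKM. A match describes letters in this window and is not a binding site. Promoters of Ccl2, Ccl5, Ccl7, Ccl11 and Cxcl5, among the members called, were not analysed here.

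Genes known to act on chemokine promoters were counted from a list of NF-κB and interferon regulators. In UUO PT cells 12 of the 18 tested rose and 1 fell, with a median change of 1.28 log2 units, against 0.51 over all genes and with 27.9% of all genes called higher and 4.91% lower. The NF-κB subunits Rela, Nfkb1, Relb and Nfkb2 rose by 1.92, 1.88, 1.70 and 1.64 log2 units, the co-regulator Nfkbiz by 2.43 and the interferon regulatory factor Irf1 by 1.69, while Irf8 changed by -1.0. In UUO macrophages only Tnfaip3, a feedback inhibitor, was called among 20, against 2.86% of all genes called higher. It changed by 0.99, with a list median of 0.05 against -0.03. In endothelial cells 0 of 19 were called, against 1.28 and 0.702% of all genes higher and lower (median 0.39 against 0.03). In stromal cells 4 of 20 rose and 2 fell, against 13.4 and 13% of all genes, the fallen ones being Nfkb1 (-0.96) and Ikbkb (-1.07), with a list median of -0.07, equal to that of all genes.

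Genes of the system that bear other names changed in places. Ppbp, the platelet ligand of Cxcr2, and Ccrl2, a receptor-like protein that presents chemerin, rose in UUO macrophages by 2.77 and 1.56 log2 units. These were 2 of 6 tested, against 2.86% of all genes called higher. Ccrl2 fell in UUO endothelial cells by 1.32, the only call among 12 there, against 0.702% of all genes called lower. In UUO stromal cells Cmklr1, the chemerin receptor, and Ccl21a, a ligand of Ccr7, rose by 2.10 and 2.12. That was 2 of 12 tested, near the 13.4% of all genes called higher. In PT cells 0 of 6 were called, against 27.9 and 4.91% of all genes higher and lower. Among signalling genes downstream of the receptors, 4 of 10 rose in UUO PT cells, among them the regulator of G protein signalling Rgs2 (3.05), against 27.9% of all genes. In UUO macrophages 1 of 24 rose, Rgs1 (1.87), and 1 fell, Plcb2 (-0.81), against 2.86 and 2.13% of all genes. In stromal cells 3 of 18 rose and 3 fell, against 13.4 and 13% of all genes, with Rgs16 at 3.38 and Rgs2 at -4.29 as the extremes. In endothelial cells only Gng2 was called among 17 (1.44), against 1.28% of all genes called higher. The list medians for these signalling genes were 0.69, -0.04, 0.01 and 0.28 in PT cells, macrophages, stromal and endothelial cells.

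The comparison of rUUO with UUO asked whether relief of the obstruction moved the members. It gave calls in PT cells alone, where Cxcl17 and Ccl5 fell, 2 of 12 tested against 3.15% of genes called lower. Cxcl17 was at 2.34, 2.78 and 0 FPKM in rUUO, below the 13 to 31.9 of UUO, a change of -3.19 ± 0.43 log2 units (adjusted p = 0.00167). Ccl5 was at 0.99, 0.95 and 0 FPKM in rUUO, against 3.17 to 7.69 in UUO (-1.75 ± 0.39, adjusted p = 0.0262), but the call was lost without PT UUO replicate 3, PT rUUO replicate 3 or PT rUUO replicate 4. The median change of the 12 members was -0.37, against -0.27 over all genes. The filter on low values favours members high in UUO, as Cxcl17 and Ccl5 were. The count and median thus describe the members that passed and support nothing further. Of the PT genes called in this comparison, 17.6% were higher in rUUO, 48.5% without mitochondrial genes and 59.3% after quantile normalization, and both members remained called and lower under each.

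In the other populations 0 members were called by limma between rUUO and UUO. Macrophages had 9 of 33 members at an unadjusted p under 0.05, with 0 of 13332 genes called (0%) and 945 at that unadjusted level. At the same unadjusted level endothelial cells had 1 of 15 members and 1369 of 13393 genes, with 0.0597% of genes called. Stromal cells had 5 of 23 members and 2777 of 14033 genes, with 4.17% called. In stromal cells, leaving out UUO replicate 3 brought 2 members past the threshold. The member medians were 0.05, -0.19 and 0.06 log2 units against -0.02, 0.15 and 0.19 over all genes. In stromal cells 70.8% of the genes called were higher in rUUO, or 54% after quantile normalization.

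Cxcr4 took different courses in the populations after relief. In macrophages it was at 118, 129 and 138 FPKM in rUUO, above all UUO samples (37.9 to 68.6), with a change of 1.27 log2 units that was not called (adjusted p = 0.127). In PT cells it was at 1.32, 4.11 and 1.14 FPKM, below all UUO samples (4.50 to 11.8), with a change of -1.34 (adjusted p = 0.0685). Endothelial values of 55.1, 58.7, 43.5 and 61.4 FPKM overlapped those of UUO (-0.20, adjusted p = 0.78), and the stromal change was 0.78 (adjusted p = 0.394). The F test found that the change between rUUO and UUO differed between populations for Cxcr4 (adjusted p = 0.00534) and Cxcl17 (adjusted p = 0.000519), 2 of 31 members against 5.57% of genes. Without stromal UUO replicate 3 the test passed for 6 members.

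The rUUO samples were also set against sham, and this comparison shares its sham samples with that of UUO and its rUUO samples with the one above. Of the 36 members tested anywhere, 18 were called, again with no share over all genes counted beside it. In PT cells 2 of 12 were higher, against 6.52% of genes, with medians of 0.84 and 0.21 log2 units for members and all genes. In macrophages 10 of 33 were higher (1.89% of genes, medians 0.71 and -0.03), in endothelial cells 3 of 15 (1.4%, medians 0.62 and 0.19), and in stromal cells 7 of 23 were higher (11.6%) and 1 lower (5.57%), with medians of 1.02 and 0.15. As for UUO against sham, these counts and medians describe the members that passed the filter and support nothing further. Both PT members called, Ccl2 and Cxcl1, were under 1 FPKM in sham and passed through the groups where they were higher. Higher genes made up 87.3% of the PT calls, 79.3% of the endothelial and 67.6% of the stromal ones, or 69.6, 60.7 and 51.9% after quantile normalization.

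Ccl2 was above sham in all 4 populations after relief, by 1.96 log2 units in PT cells (adjusted p = 0.00208), 2.14 in macrophages (0.000269), 1.94 in endothelial cells (0.0207) and 2.84 in stromal cells (5.19e-05). The rUUO values were 3.96, 4.90 and 2.87 FPKM in PT cells and 81.3, 83.4 and 78.2 in macrophages. They were 2.45, 11.5, 5.97 and 4.46 FPKM in endothelial and 14.3, 24.7, 29.9 and 39.2 in stromal cells. In each population the rUUO samples stood clear of the sham samples. The endothelial call was lost without endothelial sham replicate 3, rUUO replicate 2 or rUUO replicate 4, which left 1 endothelial member called each time.

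In PT cells the other member called was Cxcl1, at 6.64, 6.34 and 3.30 FPKM in rUUO, 2.25 ± 0.35 log2 units above sham (adjusted p = 0.000856). Cxcl10, at 22.9, 5.57 and 7.64 FPKM, lay across the sham and UUO ranges and was not called. Cxcl16, at 32.8, 27.4 and 18.1 FPKM, lay above all sham samples and was not called either. Without rUUO replicate 4 the number of PT members called rose from 2 to 4. The summed ligand level of PT cells was 34.3 ± 8.47 FPKM in sham (SD, n = 3), 110 ± 22.3 in UUO (n = 4) and 71 ± 19.2 in rUUO (n = 3). Thick limb and collecting duct markers and monocyte markers followed the same order, as given above.

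Ccl8 was among the 10 members above sham in rUUO macrophages. It was at 256, 331 and 243 FPKM, 3.61 ± 0.38 log2 units above sham (adjusted p = 0.000106). Ccl7, at 59.9, 34.5 and 30.8 FPKM, was above sham by 2.73 (adjusted p = 0.00197), Ccl17 by 2.66 (0.0132), Cxcr4 by 2.30 (0.000112) and Ccr2, at 129, 118 and 142 FPKM, by 0.81 (0.0385). Ccr2 in rUUO lay between its sham and UUO ranges with no overlap on either side. The neutrophil attractants Cxcl1, at 6.15, 6.68 and 6.82 FPKM, and Cxcl2, at 95.5, 108.6 and 68.8, were above sham by 1.85 and 1.83 (adjusted p = 0.019 and 0.00834), and Ccl9 by 1.07 (0.0221). Ccl5 was called by 1.60 (0.0432) although its groups overlapped. Ccl12, at 167, 184 and 151 FPKM, and Ccr1, at 3.17, 5.44 and 2.36, were not called. The count of 10 fell to 5 without rUUO replicate 1 or rUUO replicate 4 and to 6 without sham replicate 1, with Ccl2, Ccl7, Ccl8 and Cxcr4 called each time. Ccr2 and Ccl5 were each lost without any of the 3 rUUO samples. Neutrophil markers summed to 99.1 to 129 FPKM in these samples, with Ly6g listed at 0. Summed T cell markers were 7.74 to 47.9 FPKM, against 0.69 to 1.64 in sham, natural killer cell markers 0.67 to 13.1, against 0, and monocyte markers 10.4 to 20.3, against 6.04 to 7.01. B cell markers summed to 29.2 to 42.9 FPKM, against 42.5 to 57.8 in sham, and dendritic cell markers to 16 to 26.2, against 30.9 to 40.6. The part of these cells in the macrophage results was not tested.

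Stromal cells kept several ligands above sham after relief. Ccl19 was at 134, 53.6, 53.8 and 65.6 FPKM, 2.41 log2 units above sham (adjusted p = 0.000318), with no overlap. Cxcl12 was at 258, 121, 104 and 84.8 FPKM (1.99, adjusted p = 0.00445), Cx3cl1 at 104, 95.5, 107 and 83.7 (1.52, adjusted p = 0.00747) and Cxcl14 at 37.9, 19.99, 36.8 and 36.6 (1.42, adjusted p = 0.0129). Each of these stood above its sham range. Cxcl16, not called in UUO stromal cells, was at 75.6, 58.3, 67.9 and 65.5 FPKM in rUUO against 21.4 to 29.8 in sham (1.38, adjusted p = 0.00268). Ccl11 was called by 1.09 (adjusted p = 0.0411) with overlapping groups and was lost without sham replicates 1, 3 or 4 or rUUO replicates 1 or 2. Cxcl13 was at 2.79, 3.50, 1.52 and 5.66 FPKM, all far below the sham samples (-3.15 ± 0.77, adjusted p = 0.00948). Ccl25, at 1.51, 2.68, 4.09 and 3.34 FPKM, overlapped its sham values. The stromal marker list summed to 4947 to 6112 FPKM in rUUO, against 870 to 2238 in sham, monocyte markers to 27.7 to 43.9, against 5.18 to 18.6, and neutrophil markers to 4.24 to 41.3, against 0.14 to 0.93. Of the 4 monocyte markers, only 1 averaged 1 FPKM or more in these rUUO samples. Thick limb and collecting duct markers summed to 54.5 to 92.5 FPKM, against 342 to 427, and the part of these lists in the stromal results was not tested.

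In endothelial cells, Cxcr4 was above sham by 1.10 ± 0.21 log2 units (adjusted p = 0.00988) and Cxcl10 by 1.2 ± 0.27 (adjusted p = 0.0301). Cxcl10 was at 6.02, 7.34, 6.57 and 11.9 FPKM in sham, 20.7, 11.7 and 11.6 in UUO and 20.2, 19.8, 19.3 and 16.7 in rUUO, so that rUUO was clear of sham and UUO was not. This call was lost without any 1 of the 4 rUUO samples or sham replicates 1, 2 or 3. Cxcl12 ranged from 9.63 to 40.3 FPKM in rUUO and Cx3cl1 from 61.4 to 91.2, and neither was called. Lymphatic endothelial markers summed to 88.5 to 107 FPKM in rUUO, against 44.3 to 64.6 in sham. Podocyte markers, at 22.1 to 48.6 FPKM, overlapped their sham sums of 24.4 to 41.8. The part of these lists was not tested.

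The population with the highest mean changed with surgery for 4 members whose highest mean was at 1 FPKM or more after each of the 3 surgeries. Cx3cl1 was highest in endothelial cells in sham and in stromal cells in UUO and rUUO, at means of 91 FPKM in endothelial and 98.4 in stromal UUO samples, which overlapped. Cxcr4 was highest in macrophages in sham, in endothelial cells in UUO and in macrophages in rUUO, where its mean reached 129 FPKM. Cxcl13 was highest in stromal cells in sham and UUO and in macrophages in rUUO. Its UUO stromal mean rested on replicate 4, at 59.7 FPKM, and its rUUO macrophage mean on 1 sample at 11.9 FPKM, the others being at 1.16 and 1.11. Ccl25 was highest in stromal cells, macrophages and endothelial cells in turn. None of these orders was tested.

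Several receptors and ligands stayed near the lower end. Ccr3, Ccr4, Ccr6, Ccr8, Cxcr1 and Cxcr5 had highest group means of 0.438, 0.193, 0.29, 0.05, 0.07 and 0.662 FPKM, so the receptors of Ccl11, Ccl17, Ccl20 and Cxcl13 were under 1 FPKM in these sorts. Cxcr3, the receptor of Cxcl9 and Cxcl10, averaged 5, 5.63 and 8.06 FPKM in sham, UUO and rUUO macrophages, and Cxcr6, the receptor of Cxcl16, 1.58, 3.07 and 1.97. Cxcr2, which binds Cxcl1, Cxcl2 and Cxcl5, had a highest group mean of 1.51 FPKM. Ccr7, the receptor of Ccl19, was at 0.11 to 1.98 FPKM in sham and 2.31 to 6.35 in UUO macrophages and was not called. Cxcl11, Cxcl15 and the scaffold row of Ccl19 had highest group means of 0.457, 0.12 and 0.81 FPKM. Exons of Cxcl16 and Cxcl10 overlap those of Zmynd15 and Art3 on the opposite strand over 18.3 and 5.91% of their bases, and whether the counting used strand is not given in the sources used here.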

How the data were processed

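RNA from sorted cells was amplified with the Ovation RNA-Seq System V2 kit and sequenced with reads of 150 bases. The authors deposited 1 table of FPKM values per gene, given to 2 decimals. The submitters' processing notes name FastQC, Bowtie2, RSEM, DESeq2 and mm10, with versions and settings not given in the sources used here. No counts were used, so the depth of each sample is unknown. The steps between low values put the relative depth of the samples at 0.64 to 1.54 of the median, and 9502 to 14464 genes reached 1 FPKM.

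Groups followed the labels of the 46 samples. A PT sample whose title names both sham and UUO was placed in UUO (replicate 2) by its treatment label. Of 46 value columns, 2 that bear the same name (endothelial UUO replicate 3) were not used, which left 44. The labels also list a PT sham replicate 3, for which no column is named. Whether it is among the 2 unused columns is not known. No 2 columns were identical.

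From the deposited FPKM, log2(FPKM + 1) was fitted by limma 3.58.1 in R 4.3.3 with moderated variance, separately in each population, over genes averaging 1 FPKM or more there, with Benjamini-Hochberg adjustment over those genes and a threshold of 0.05. Sham populations were compared in 1 fit, each against the mean of the other 3, and the interaction of population and surgery was tested by F in a fit of all groups. Tables and plots were made in Python 3.11.15 with pandas 2.3.3, numpy 2.4.6 and matplotlib 3.10.9. The fits were tested on simulated data. Promoters were 250 bases before each RefSeq start in GRCm38.p6.

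The members, the marker lists and the pathway lists were chosen with earlier results of these data known. Values in every sample were to be given for the 3 ligands and 2 receptors highest in sham in each population, for up to 5 members called without overlap in UUO against sham and up to 3 in rUUO against UUO, and for 8 ligand and receptor pairs. Other members shown by sample were chosen after their values were seen. The values of 1 member are not reported here or plotted, although it stays in the counts and sums. The alternatives were another pseudocount (0.1), no filter, a fold above 1.5 beside the threshold, 3 other scalings, a block for the replicate number, all populations in 1 fit, and each sample left out in turn.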

Additional observations from a re-analysis of the deposited data

Results flagged for a closer look

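In 3 of the 88 groups of 4 samples examined, 1 sample stood apart from the others by more than the critical gap of Dixon's test, which chance gives in about 1 in 20 groups. Ccl20, a ligand of Ccr6, was at 1.35 FPKM in PT UUO replicate 3 and at 0.00 in the other 3 PT UUO samples, a gap of 1.000 of the range. Ccl7 was at 1.44 FPKM in macrophage sham replicate 2 against 6.61 to 8.34 in the others (0.847). Cxcl16 was at 35.96 FPKM in PT UUO replicate 3 against 24.46 to 25.16 (0.927).

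In the limma F test of the interaction, the populations changed unequally from sham to UUO for 13 of the members named by the rule given under processing, among the 17 that passed in all. The adjusted p was 0.00122 for Ccl8, 0.0014 for Ccl7, 0.000477 for Ccl17, 0.000564 for Ccr1 and 3.07e-05 for Ccr2, with changes called in macrophages for each and also in stromal cells for Ccl7. It was 0.000374 for Cxcl12, 0.0234 for Cxcl5, 0.0477 for Cxcl13 and 0.0166 for Ccl25, called in stromal cells, and 0.0279 for Cx3cl1, called in PT and stromal cells. It was 1.14e-06 for Cxcl17 and 0.0327 for Cxcl10, called in PT cells, and 0.000948 for Cxcr4, called in PT cells, macrophages and endothelial cells. The change between rUUO and UUO differed for Cxcr4 (0.00534) and Cxcl17 (0.000519).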

How the results depend on the processing

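Of the recomputed counts, 28 differed from the count reported by over 1.5 times, and the others did not. With a pseudocount of 0.1, 1 member was called in PT rUUO against UUO (2 reported) and 4 in PT rUUO against sham (2), and the F test passed for 11 (17) in UUO against sham and for 1 (2) in rUUO against UUO. With no filter the counts were 1 in PT rUUO against UUO, 6 (11) and 5 (10) in macrophage UUO and rUUO against sham, 1 (2) and 1 (3) in endothelial UUO and rUUO against sham, and 7 (12) in stromal UUO against sham. With all 4 populations in 1 fit they were 1 in endothelial rUUO against sham and 4 (0) in stromal rUUO against UUO. Leaving out 1 sample gave 1 to 2 in PT rUUO against UUO, 2 to 4 in PT rUUO against sham, 7 to 13 and 5 to 10 in macrophage UUO and rUUO against sham, 1 to 3 in endothelial rUUO against sham, 0 to 2 in stromal rUUO against UUO, and 2 to 6 by F for rUUO against UUO. The PT counts moved past 1.5 times without UUO replicate 3 or rUUO replicates 3 or 4. The cause was not tested.

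With the replicate number as a block, 4 members were called in macrophage rUUO against sham and 0 in endothelial UUO and rUUO against sham. Same-numbered samples of a population deviated together with a median r of 0.013 over 35 pairs, 1 of them over 0.1, so the numbers were not taken as pairing. Between 2 populations after the same surgery, same-numbered samples had a median r of 0.009 over 57 pairs. Of these, 2 were over 0.1, and the highest was 0.167. The reported sham and F tests treated the sorts as independent. In endothelial cells Ccl2 and Cxcr4 in UUO were the calls lost under the block.

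Of the recomputed changes of named members, 1014 kept direction and side of the threshold, 88 lost the call, 14 gained one and 3 took the other sign. The last were Cxcr4 in stromal UUO against sham, 0.25 after quantile normalization and -0.34 to 0.10 with 1 sample left out (0.06 without UUO replicate 4). A further 64 named changes were called under no setting, and 22 of them had the other sign under some setting. Quantile normalization moved the median of all PT genes in UUO against sham from 0.51 to -0.02. FPKM without counts limits what can be said of members near 0.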
